A study of Saccharomyces cerevisiae with 112 samples.

Results

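RNA polymerase III is the nuclear enzyme that makes the tRNAs and the 5S ribosomal RNA, and the 10 genes described here are its subunits RPO31, RET1, RPC82, RPC53, RPC37, RPC34, RPC31, RPC17 and RPC11 together with MAF1, its repressor. They were chosen by systematic name, as YOR116C, YOR207C, YPR190C, YDL150W, YKR025W, YNR003C, YNL151C, YJL011C, YDR045C and YDR005C in that order, and are 10 of the 6319 genes in the table. The 9 subunits were detected in every library. MAF1 was listed at 0 in every library, so nothing below describes its level.

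Messenger RNA of 8 budding yeast strains was measured at 7 times: midlog growth, starvation after 72 h at 30 °C, 5, 30 and 90 min after release into fresh medium, and 1 and 2 population doublings after release. Each strain had 2 libraries at each time. Sir2D, Sir3D and Sir4D each lack 1 of the silencing genes SIR2, SIR3 and SIR4. All 3 are MATa ura3 leu2 his3 met15 strains with a kanamycin-resistance marker in place of the gene. Sir2D and Sir4D come from a commercial deletion library and Sir3D is the S288C strain MRL5.1. Sir3_3xHA is wt1 with a loxP-flanked HA tag, followed by a T7 tag, fused to the C-terminus of Sir3, and Sir3_3xT7 is the same construct after estradiol had switched the tag, so these are not independent constructions. The labels call both hypomorphs. The strain oeSir3 (THC70, W303) lacks its own SIR3 and carries at ura3-1 a Sir3-HA gene under a galactose-driven promoter, which the labels give both as GAL1 and as GAL10. It is MATa and also carries ade2-1, trp1-1 and can1-100, alleles of HIS3 and LEU2, deletions of BAR1, LYS2, MAT and HML, and an altered HMR. The references were wt1 (NKI12318, S288C, MATa with ura3d0, trp1d63, met15d0, lys2d0, leu2d0, his3d200, bar1::HisG and HIS3, carrying the estradiol-regulated Cre construct Pgpd_CRE_EBD78) and wt2 (JOY1, S288C with BY4741 as parent, MATa with bar1D:HIS5, met15D, his3D, leu2D and ura3D). The oeSir3 cells grew in galactose medium and the other 7 strains, called glucose strains here, in YPD. No wild type of the W303 background or in galactose is among the samples, so sugar, strain background and SIR3 dose cannot be told apart in oeSir3.

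Each value is a log2 of the median coverage by reads along a gene's coding bases, scaled with S. pombe RNA added in proportion to the mass of total RNA. They are therefore per base, and levels of genes are set side by side below. Short genes had higher values in every library, however, which limits such a comparison. Poly(A) RNA was sequenced, so the subunits' mRNAs are described and not the transcripts that the enzyme makes. The median gene had 4 to 119.5 reads of coverage per library (median 52.5). Reads given for a gene here and below are this depth, the median coverage along its coding bases before scaling. They are not a count of all reads on the gene. The median gene itself fell by 1.96 on the log2 scale in starved wild types. A second scale, called centred here, subtracts each library's median gene, and results on it are changes relative to that gene. The libraries fall into sets by how coverage of 0 is written: 6 series (a series is 1 strain and replicate followed over the 7 times), all replicate 1 and including both wild types, have a separate value in each library and 4 to 57 reads at the median gene, and the other 10 series share 1 value, with 9 to 119.5 reads. As a check of labels, SIR2, SIR3 and SIR4 had coverage of 0 in all 14 libraries of their own deletion, and SIR3 had a median coverage of 11.2 in oeSir3, against 0.192 in wt1 and 0.138 in wt2.

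The enzyme is built around its 2 largest subunits, and the others sit on that core. Rpo31 (YOR116C) and Ret1 (YOR207C) form the catalytic core. Rpc17 (YJL011C) forms the stalk together with Rpc25. Rpc82 (YPR190C), Rpc34 (YNR003C) and Rpc31 (YNL151C) form a subcomplex that takes part in initiation, in which Rpc34 contacts the initiation factor TFIIIB. Rpc53 (YDL150W) and Rpc37 (YKR025W) form a heterodimer needed for termination and reinitiation, and Rpc11 (YDR045C) drives cleavage of the nascent RNA. Maf1 (YDR005C) binds the polymerase when nutrients run out and is held off it by phosphorylation during growth.

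Genes for polymerases I and III are known to share a promoter element, PAC, whose core is GATGAG, often near a second element, RRPE, whose core is AAAAATTT. Windows from 250 bases before to 50 bases after each gene's start were cut from the RefSeq R64 genome and read on both strands. GATGAG was in 7 of the 9 subunit windows, or 77.8%, and in 19.9% of the 5690 windows of all genes. AAAAATTT was in 6 of the 9, or 66.7%, and in 14.6% of all windows. The longer PAC form GCGATGAG, which contains the core, was in 2 of the 9 and in 4.06% of all. Of the other polymerase III and shared subunit genes 3 of 8 held GATGAG, of the polymerase III initiation factor genes 2 of 10, of the polymerase I genes 7 of 8 and of the genes for tRNA maturation 7 of 17. Of the genes specific to polymerase II 1 of 7 held it, and of 18 genes for kinases, phosphatases and an exporter linked to Maf1 none did. The RPC17, RPC11 and MAF1 windows held no GATGAG. The sites are shown in the sense of the gene, with GATGAG or its complement CTCATC in capitals. In RPC82 and RPC31 the capitals lie in the longer form. The capitals start 98, 129, 122, 240, 63, 61 and 83 bases before the start codon in RPO31, RET1, RPC82, RPC53, RPC37, RPC34 and RPC31. RPC53 has an overlapping copy that starts at 245, and RPC37 has others at the start codon and within the coding bases.
RPO31: taaatttttaaaCTCATCactggttggtta
RET1: ttgtaattgtgaGATGAGctgaaaattttt
RPC82: atttttcaaaagCTCATCgcattgaaggaa
RPC53: gctatgatgaGATGAGcttcattattgaat
RPC37: ataaaagcgagaGATGAGcttaaatgatct
RPC34: atgtatttgtgaGATGAGatcattacagaa
RPC31: gaaaatagtttcCTCATCgcagcaacctat
In R64 these lie at chrXV:544226-544255 (minus strand) for RPO31, chrXV:733569-733598 (minus) for RET1, chrXVI:919146-919175 (minus) for RPC82, chrIV:183093-183122 (plus) for RPC53, chrXI:487695-487724 (plus) for RPC37, chrXIV:635341-635370 (minus) for RPC34 and chrXIV:348587-348616 (minus) for RPC31. In RPO31, RET1 and RPC82 an AAAAATTT match, read on the opposite strand as AAATTTTT, lies near the PAC core. It stands whole in the letters above for RPO31 and RET1 and in part for RPC82. A match is a description of letters and says nothing of binding.

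In starvation against midlog, every subunit mRNA fell in wild types on the spike-in scale (limma, adjusted p under 0.05 with an absolute log2 change of at least 1, adjusted over 5567 genes). The 9 of 9 stand beside 71.7% of all genes tested that fell. The subunits' median change was -3.22, against -1.96 for all genes. RPC17, the stalk subunit, had the largest change. Its coverage was 0.147, 0.221, 0.0383 and 0.227 in the starved libraries wt1 replicate 1, wt1 replicate 2, wt2 replicate 1 and wt2 replicate 2, against 3.62, 10.5, 5.88 and 8.91 in the midlog libraries in the same order. The groups do not overlap, and the change was -5.33 ± 0.73 (log2 ± SE, adjusted p 3.8e-09). RPO31, the largest subunit, had the smallest change of the 9, -2.30 ± 0.73 (adjusted p 0.0041). Its coverage was 0.108, 0.165, 0.0602 and 0.154 in those starved libraries, against 0.614, 1.63, 0.14 and 1.42 in midlog. The starved wt1 replicate 2 and wt2 replicate 2 lie above the midlog wt2 replicate 1, so the groups overlap. That midlog library is one of 6 in which the median gene had under 10 reads, and RPO31 had a median coverage of 5 reads in it.

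Relative to the median gene, fewer calls were made. In wild types RPC17, RPC11, RPC34, RPC53 and RPC31 fell, 5 of 9 beside 22.6% of all genes, with changes of -3.37, -2.0, -1.64, -1.53 and -1.26. RET1 (-0.93), RPC82 (-0.80), RPC37 (-0.63) and RPO31 (-0.34) were not called. RPC53, of the termination dimer, had centred values of 0.08, 0.16, 0.06 and -0.36 in the starved libraries, in the order used above, against 1.15, 1.38, 1.91 and 1.61 in midlog. No starved library reached a midlog one, and the change was -1.53 ± 0.20 (limma, adjusted p 1.9e-09). Within the series with separate zero values 4 of 9 were called, beside 1874 of 5567 genes in either direction. Within the others 6 of 9 were called, beside 2609. In all 7 glucose strains, with 14 libraries a time, 6 of 9 fell, the 5 above and RET1 (-1.06 ± 0.16, adjusted p 1.6e-08), beside 21.0% of all genes. Within those sets of series 5 and 6 were called, beside 2211 and 2295 of 5567 genes in either direction. RPC17, RPC11, RPC34, RPC53, RPC31 and RET1 were lower in starvation in 14 of 14 glucose series, RPC82 in 13, and RPC37 and RPO31 in 12. Scaled to each library's upper quartile instead, RET1 (-0.84) and RPC31 (-0.93) no longer passed the threshold of 1 in the glucose strains, nor did RPC31 (-0.99) in wild types. With a pseudocount of 0.3 in place of the 0.03 used here, RET1 (-0.53) did not pass in the glucose strains.

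The 3 subunits of the initiation subcomplex differed in how cleanly the groups parted. RPC34 had centred values of -0.35, -0.66, 0.85 and 0.57 in the starved wild types, in the order used above, against 1.06, 1.43, 2.52 and 1.94 in midlog. RPC31 had 1.51, 1.69, 0.85 and 0.53 in starvation, against 2.01, 2.22, 3.23 and 2.17 in midlog. Neither overlaps. RPC82 had -0.35, 0.11, -1.10 and -0.11 in starvation, against 0.06, 0.87, 0.00 and 0.83 in midlog, and the starved wt1 replicate 2 lies among the midlog libraries. Its change of -0.80 ± 0.30 had an adjusted limma p of 0.021 but did not reach the threshold of 1.

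RPC11, the cleavage subunit, and RPC17 stayed apart from their midlog levels in every starved wild type. RPC11 had centred values of 1.61, 1.00, 1.65 and 1.03 in starvation, against 2.45, 3.02, 4.68 and 3.13 in midlog. RPC17 had -0.50, 0.09, -0.85 and 0.06 in starvation, against 2.10, 2.97, 4.54 and 2.66 in midlog. The midlog wt2 replicate 1 is the highest library for both, with 8 reads at its median gene. In the glucose strains the RPC17 change was -2.52 ± 0.28 and that of RPC11 -1.71 ± 0.25.

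**Figure D1:**
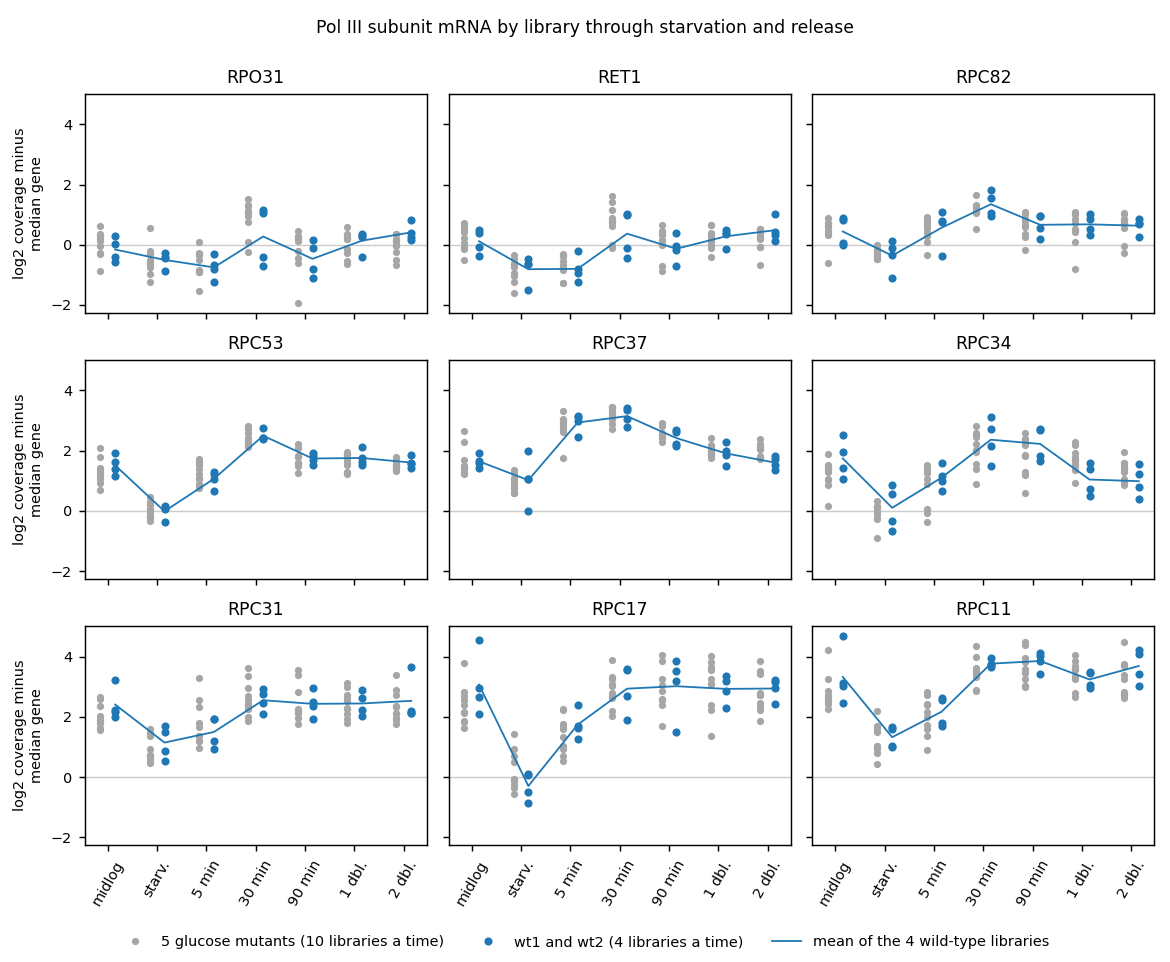
Centred log2 coverage of the 9 subunits (vertical axis, 0 is the median gene) at the 7 times, with 1 point for each library of the 5 glucose mutants in grey and of the 2 wild types in blue, and a line through the wild-type means. In the glucose strains the RPC17 median is -0.09 at starvation and 2.48 at midlog, the RPC37 median is 2.98 at 5 min and 3.22 at 30 min, and the RPO31 median is -0.59 at 5 min and 1.07 at 30 min.

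At 5 min after release RPC37, RPC17 and RPC53 rose in wild types relative to the median gene. RPC37 had centred values of 2.99, 2.46, 3.13 and 3.15 at 5 min in wt1 replicate 1, wt1 replicate 2, wt2 replicate 1 and wt2 replicate 2, against 1.05, -0.01, 1.98 and 1.06 in starvation. Every 5 min library lies above every starved one, and the change was 1.91 ± 0.23 (limma, adjusted p 4.2e-10). RPC17 changed by 2.04 ± 0.53 and RPC53 by 1.08 ± 0.20, which makes 3 of 9 called beside 11.9% of all genes. Within the series with separate zero values 2 of 9 were called, beside 305 of 5567 genes in either direction. Within the others 3 of 9 were called, beside 1446. On the spike-in scale, the series with separate zero values gave 0 of 9 at 5 min, beside 46 of 5567 genes in either direction. The others gave 6 of 9, beside 1458. With all wild-type series RPC17 and RPC37 were called on that scale, 2 of 9 beside 10.4%. That count was 1 without wt2 replicate 1 and 0 without wt1 replicate 2. With a pseudocount of 0.3 instead of 0.03, 1 of 9 was called at 5 min on either scale in wild types, and 1 of 9 in the glucose strains, which left RPC37. Scaled to the upper quartile RPC53 (0.97) did not pass in wild types. With a term for the replicate of each strain in the fit, 5 of 9 were called on the spike-in scale, beside 1013 of 5567 genes in either direction.

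The other small subunits were spread between those 3 and the large ones. RPC82 changed by 0.93 ± 0.30, RPC34 by 1.0 ± 0.38 (just under the threshold), RPC11 by 0.85 ± 0.47 and RPC31 by 0.35 ± 0.37 at 5 min in wild types, and none was called. RPC17 had 1.7, 1.26, 2.38 and 1.61 at 5 min, each above the highest of its 4 starved values, 0.09. RPC53 had 0.68, 1.05, 1.29 and 1.23 at 5 min, above its highest starved value, 0.16. In the glucose strains RPC53 ran from 0.68 to 1.73 at 5 min with a median of 1.15, against -0.36 to 0.46 with a median of 0.05 in starvation, so the 14 libraries of each time do not overlap. RPC37 ran from 1.77 to 3.30 (median 2.98) at 5 min, against -0.01 to 1.98 (median 0.98) in starvation, which overlap at their ends.

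Neither large subunit was called at 5 min. RPO31 changed by -0.25 ± 0.35 and RET1 by 0.01 ± 0.29 in wild types. RET1, the second largest subunit, had centred values of -1.24, -0.95, -0.80 and -0.22 at 5 min, against -1.50, -0.48, -0.63 and -0.64 in starvation, and these overlap. In the 7 glucose strains RPC37 (1.90 ± 0.12), RPC17 (1.44 ± 0.28) and RPC53 (1.17 ± 0.11) rose, 3 of 9 beside 13.4% of all genes. Within the series with separate and with shared zero values 3 and 5 were called, beside 945 and 1273 of 5567 genes in either direction. RPC37 and RPC53 were higher at 5 min than in starvation in 14 of 14 glucose series. RPO31 was higher in 6 of 14 and RET1 in 8 of 14. Genes with at least 3000 coding bases, of which 448 were tested, had a median change of -0.45 at 5 min in wild types, and 15.2% of them were higher. RPO31 (4383 coding bases) and RET1 (3450) are of that class. With each library's trend with coding length subtracted, an alternative added after the data had been seen, the 5 min change was 0.21 ± 0.25 for RPO31 and 0.36 ± 0.21 for RET1, and 1.81 ± 0.19 for RPC37.

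**Figure D2:**
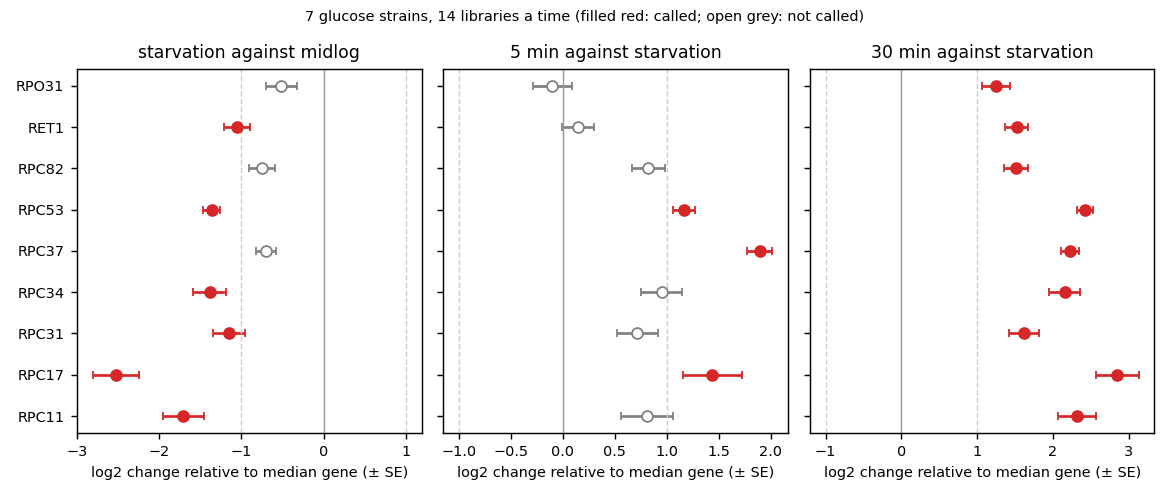
Log2 change relative to the median gene (horizontal axis, points ± SE) of each subunit in the 7 glucose strains for starvation against midlog, 5 min against starvation and 30 min against starvation. RPC37 lies at 1.90 at 5 min, RPO31 and RET1 at -0.10 and 0.14, and all 9 are past the threshold of 1 at 30 min.

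All 9 subunits rose by 30 min in the glucose strains, beside 23.9% of all genes, with changes between 1.25 (RPO31) and 2.85 (RPC17). RPC53 changed by 2.42 ± 0.11, and ran from 2.12 to 2.83 at 30 min, clear of its starved range. RPC11 changed by 2.31 ± 0.25, RPC37 by 2.22 ± 0.12, RPC34 by 2.15 ± 0.20, RPC31 by 1.61 ± 0.20, RET1 by 1.52 ± 0.16 and RPC82 by 1.51 ± 0.16. Scaled to the upper quartile RPO31 changed by 0.99 and was not called, and with a pseudocount of 0.3 neither RPO31 (0.83) nor RET1 (0.91) was. Within the series with separate and with shared zero values 9 of 9 were called, beside 2558 and 2621 of 5567 genes in either direction. In wild types 8 of 9 rose on the centred scale, beside 23.2%, and 9 of 9 on the spike-in scale, beside 52.7%. RPO31 was the exception on the centred scale, at 0.78 ± 0.35. RET1 (1.18 ± 0.29) was called there, but not at the upper quartile (0.91) or with a pseudocount of 0.3 (0.63). RPO31 had centred values of -0.71 and -0.41 in replicate 1 of wt1 and wt2 at 30 min and 1.06 and 1.16 in replicate 2, against -0.86 and -0.45 in replicate 1 and -0.28 and -0.42 in replicate 2 in starvation. Both replicate 2 libraries lie above both replicate 1 libraries at 30 min. Across all genes the centred value changed by -0.69 and -1.0 per doubling of coding length in these replicate 1 libraries and by -0.47 and -0.45 in the replicate 2 libraries, and the part of that trend in RPO31 was not tested. With the length trend subtracted RPO31 rose in wild types by 1.26 ± 0.25 (limma, adjusted p 1.4e-05).

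At 30 min against 5 min, in the glucose strains, RPC11, RPC17, RET1, RPO31, RPC53 and RPC34 rose, 6 of 9 beside 14.4% of all genes. RET1 changed by 1.38 ± 0.16 and RPO31 by 1.35 ± 0.19, while RPC37 changed by 0.32 ± 0.12 and was not called. At 90 min against 30 min none of the 9 fell past the threshold of 1, beside 3.52% of all genes that did. An unadjusted limma p under 0.05 was reached by 5 of 9, beside 2969 of 5567 genes, and so about the share of all genes. The largest change of the 9 was -0.96 ± 0.19 for RPO31 (adjusted p 2.3e-05), which was lower at 90 than at 30 min in 14 of 14 glucose series. RPC82, RPC53 and RPC37 were lower in 14 of 14 as well, and RPC17 and RPC11 were lower in 6 and 5. RPC17, RPC11, RPC34 and RPC31 had medians of 2.97, 3.70, 2.02 and 2.25 at 90 min, against 2.92, 3.57, 2.18 and 2.50 at 30 min. RPC37 had a median of 2.54 at 90 min and 1.93 at 1 doubling, and RPO31 of 0.01 and 0.20. At 1 doubling against 90 min 0 of 9 were called in the glucose strains. In wild types on the centred scale 1 of 9 was called, RPC34 (-1.18), beside 209 of 5567 genes that fell.

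At 2 doublings against midlog no subunit was called. The limma count was 0 of 9 in wild types, beside 0.108% of all genes, and 0 of 9 in the glucose strains, beside 0.144%, and none had an unadjusted p under 0.05 in either. Changes ran from -0.75 ± 0.38 (RPC34) to 0.57 ± 0.35 (RPO31) in wild types and from -0.11 ± 0.20 (RPC34) to 0.40 ± 0.25 (RPC11) in the glucose strains.

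The mRNA levels of the subunits spread over several log2 units. In midlog glucose strains the median centred level ran from 0.09 for RPO31, RET1 following at 0.30, to 2.48 for RPC17 and 2.69 for RPC11. The order in between was RPC82 (0.52), RPC53 (1.33), RPC34 (1.41), RPC37 (1.50) and RPC31 (2.02), and each pair of neighbours in this order overlaps in its range over 14 libraries. RPC11, lowest at 2.26, does not overlap RPO31, highest at 0.61. Within a library the gap between the highest and lowest subunit had a median of 2.79 in midlog, 2.34 in starvation and 3.64 at 5 min. RPC37 was the highest of the 9 in 12 of 14 libraries at 5 min and in 2 of 14 in midlog, and RPO31 or RET1 was the lowest in 14 of 14 and 13 of 14. The 2 highest subunits in midlog have the shortest coding sequences, 333 bases for RPC11 and 486 for RPC17, and the 2 lowest the longest. In all glucose libraries short genes had higher centred values, with slopes from -1.16 to -0.29 at midlog, and the part of this trend in the order of subunits was not tested.

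Across the 56 strain and time means, RPC53 followed the mean of the other 8 subunits most closely (Pearson r 0.92) and RPO31 least (0.40), a description over means that share libraries. Between members r ran from 0.20 for RPO31 with RPC31 to 0.92 for RPC17 with RPC11. RPO31 and RET1 correlated at 0.85. The 5 genes most like the mean of the 9 subunits were NOP7 (r 0.97), RPC40 (0.97), ACL4 (0.96), NUG1 (0.96) and YTM1 (0.96). RPC40 encodes a subunit shared by polymerases I and III.

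The other genes of the enzyme also fell. For this list and those below, the shares of all genes called in wild types on the centred scale were 22.6% lower and 21.4% higher in starvation, 11.9% higher and 7.24% lower at 5 min, and 23.2% higher and 22.6% lower at 30 min. All 8 of the other polymerase III and shared subunits fell in starved wild types on the centred scale, with a median of -2.38 against -1.26 for the 9 members and 0.00 for all genes. RPO26, a subunit of all 3 polymerases, changed by -2.88 ± 0.40 and RPC25, the partner of Rpc17 in the stalk, by -2.77 ± 0.50. At 5 min all 8 rose, with RPB5, another shared subunit, up by 2.43 ± 0.40, RPC19 by 2.17 ± 0.35 and RPC40 by 2.01 ± 0.24. At 30 min all 8 rose, RPC40 by 3.45 ± 0.24. Whether this list or those below differ from the 9 members was not tested.

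Genes for the factors that bring the polymerase to its genes were also measured. Of 9 initiation factor genes tested, 1 fell in starvation on the centred scale, beside 22.6% of all genes. It was SPT15 (-1.06 ± 0.27), the TATA-binding protein, and the median of the list was -0.22. PZF1, which encodes the 5S-specific factor TFIIIA, rose by 1.54 ± 0.28 at 5 min and by 1.87 ± 0.28 at 30 min. Of all genes 11.9% rose at 5 min and 23.2% at 30 min. SPT15 rose by 1.58 ± 0.27 at 30 min and TFC4, a TFIIIC subunit, fell by 1.18 on the log2 scale. TFC3 was listed at 0 in every library.

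Most polymerase I subunit genes were called at each step. With RRN3, its initiation factor, 6 of 8 fell in starvation (median -2.45) beside 22.6% of all genes, 5 of 8 rose at 5 min beside 11.9%, and 8 of 8 rose at 30 min (median 2.69) beside 23.2%. RPA34, RPA49 and RPA43 fell by 3.15, 3.03 and 2.94 on the log2 scale. Of 7 genes specific to polymerase II, 3 fell (RPB9, RPB3 and RPB7, median of the list -0.92), none was called at 5 min and 3 rose at 30 min (median 0.88), beside the same shares.

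Genes for tRNA maturation were mixed. Of 16 tested, 6 fell in starvation beside 22.6% of all genes, with LHP1, which encodes the yeast La protein, at -2.16 ± 0.28, and POP5 and RPP1, subunits of the RNase P family, at -1.78 ± 0.40 and -1.62 ± 0.46. At 5 min LHP1 (1.60 ± 0.28) and CCA1 (1.05 ± 0.25), whose product adds the CCA end, rose, 2 of 16 beside 11.9% and so about the share of all genes. At 30 min 8 of 16 rose (median 0.86), beside 23.2%.

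**Figure D3:**
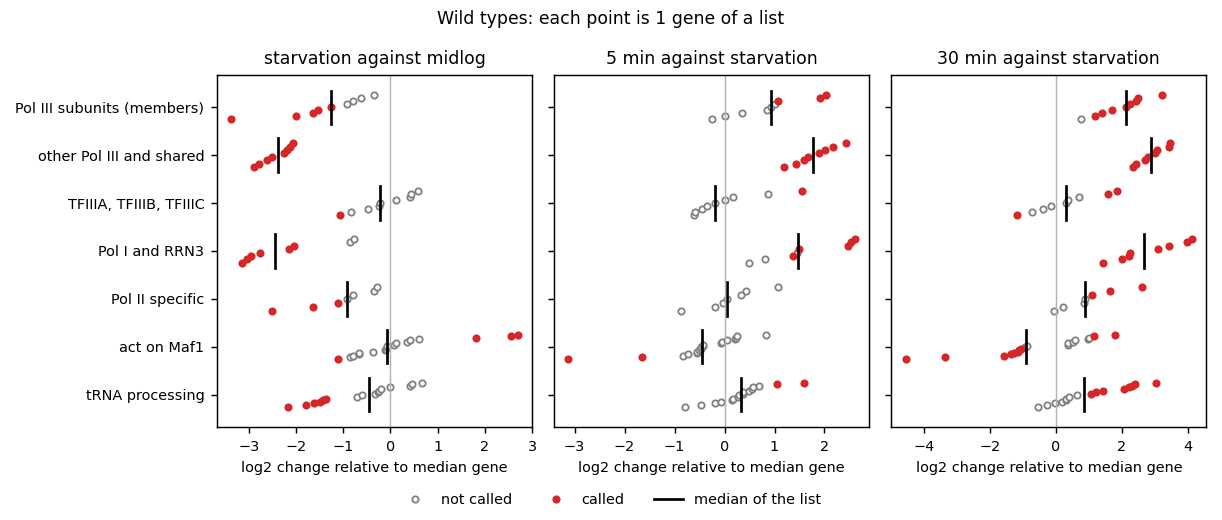
Log2 change relative to the median gene (horizontal axis) in wild types for each gene of 7 lists, with a bar at the list's median, for starvation against midlog, 5 min against starvation and 30 min against starvation. At 30 min the medians are 2.90 for the other polymerase III subunits, 2.69 for the polymerase I genes and 0.30 for the initiation factors. The median is -0.89 for the kinases, phosphatases and exporter linked to Maf1, the row labelled act on Maf1.

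MAF1 could not be followed. Its coding sequence has 2 segments in R64, at chrIV:456836-458103 on the minus strand. Of 266 genes with more than 1 coding segment, 88 (33.1%) were listed at 0 in every library, against 42 of 5427 with 1 segment (0.774%). ACT1, TUB1 and UBC4, genes that growing cells use, were at 0 in every library as well, so a 0 in these files cannot be read as an absent mRNA. Genes for kinases, phosphatases and an exporter linked to Maf1 were measured. KNS1, a kinase of Rpc53, rose in starved wild types by 2.70 ± 0.43, and TPK2, a catalytic subunit of protein kinase A, by 1.80 ± 0.33. TPK2 fell by 1.65 on the log2 scale at 5 min against starvation. At 30 min TPK2 (-3.36 ± 0.33) was down and TPK3 (1.79 ± 0.42) was up. Of the 18 genes of that list, 3 rose and 1 fell in starvation, beside 21.4% and 22.6% of all genes, both under the share of all genes. At 5 min 2 fell, beside 7.24%, and at 30 min 2 rose and 8 fell, beside 23.2% and 22.6%. These changes are relative to the median gene. On the spike-in scale none of the 18 rose in starvation, beside 4.40% of all genes, and 15 fell, beside 71.7%.

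The Sir strains grown in glucose gave no subunit a call in the main fits. Over the course as a whole, with the 7 times of a series averaged, none of 45 tests of 9 subunits in Sir2D, Sir3D, Sir4D, Sir3_3xT7 and Sir3_3xHA against the wild types was called by limma, beside 0.492% of all genes and strains, and none had an unadjusted p under 0.05. Changes ran from -0.64 (RPC17 in Sir3_3xHA) to 0.49 (RPO31 in Sir4D). At single times none of 315 was called, beside 0.522%, with changes from -1.22 to 1.11 and 13 at an unadjusted p under 0.05. In each of those comparisons 44 to 686 of 5567 genes had such a p. Calls did appear at single times in Sir3D without its replicate 2 and in Sir3_3xT7 without its replicate 2, with 1 library a time left. In the test of whether the course over time differed from the wild types, none of 45 was called, beside 0.176%, and none had an unadjusted p under 0.05. The SE of the differences of series means was 0.18 to 0.41.

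In starved oeSir3 the calls were of the 2 largest subunits. Relative to the median gene RPO31 was 1.60 and 1.62 in the starved oeSir3 libraries, against -0.86, -0.28, -0.45 and -0.42 in the starved libraries wt1 replicate 1, wt1 replicate 2, wt2 replicate 1 and wt2 replicate 2. RET1 was 1.15 and 1.38 in oeSir3, against -1.50, -0.48, -0.63 and -0.64 in the wild types. Neither overlaps. RPO31 was higher by 2.11 ± 0.43 (adjusted p 4.7e-05) and RET1 by 2.08 ± 0.36 (adjusted p 2.7e-06) in limma's test. That is 2 of 9 beside 24.8% of all genes that were higher in starved oeSir3, and so about the share of all genes. Without either oeSir3 replicate both calls held. Under a pseudocount of 0.3 the differences were 0.70 and 0.65 and neither passed both thresholds.

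The difference is one relative to the median gene. On the spike-in scale the coverage of RPO31 was 0.221 and 0.142 in starved oeSir3, against 0.108, 0.165, 0.0602 and 0.154 in the wild types, which overlap, and RPO31 differed by 0.52 (adjusted p 0.67). The median gene was at -3.59 and -4.16 (log2, spike-in scale) in those oeSir3 libraries, against -3.02 to -1.99 in wild types, and had 17 and 9 reads. RPO31 had a median coverage of 71 and 49.5 reads there and RPC82 of 7 and 3. Genes of at least 3000 coding bases had a median change of 0.78 in starved against midlog oeSir3, and 73.9% were higher, against 0.08 and 53.1% in the wild types. With the length trend subtracted RPO31 was higher in starved oeSir3 than in wild types by 1.14 ± 0.31 (adjusted p 0.0018) and RET1 by 1.24 ± 0.25 (adjusted p 5.7e-05).

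**Figure D4:**
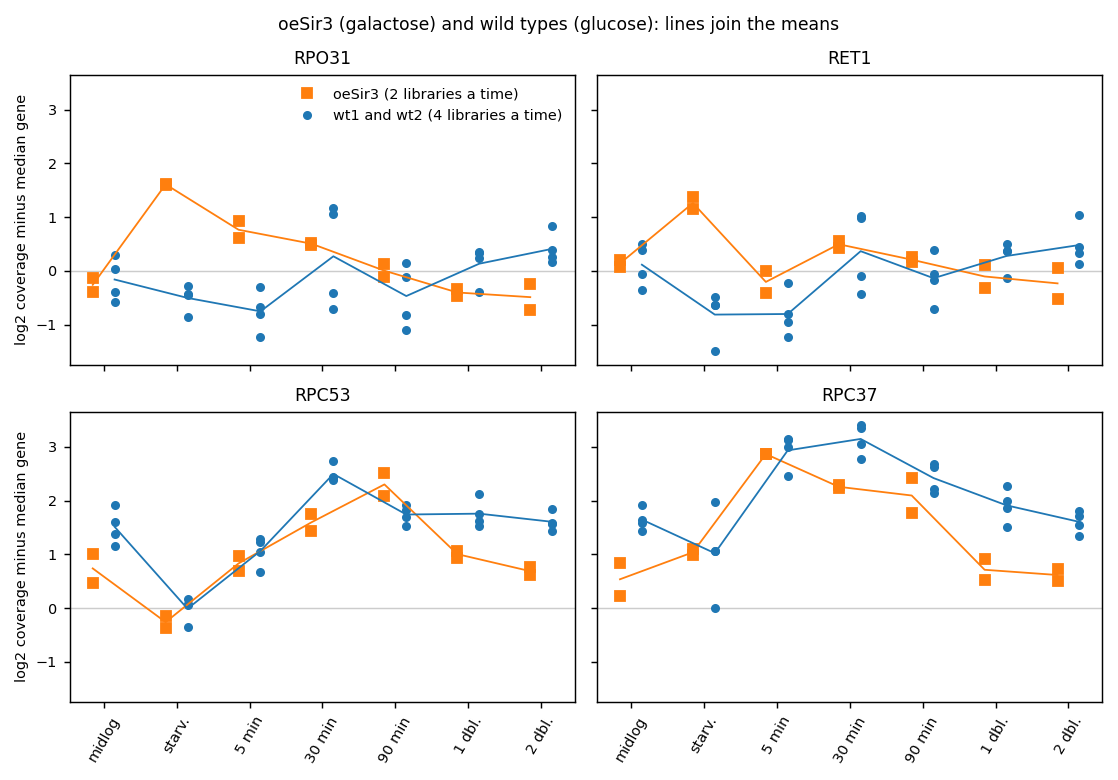
Centred log2 coverage (vertical axis, 0 is the median gene) of RPO31, RET1, RPC53 and RPC37 at the 7 times in oeSir3 (squares, 2 libraries a time) and the wild types (circles, 4 libraries a time), with lines through the means. RPO31 and RET1 stand above the wild types at starvation in oeSir3, and RPC37 stands below them at midlog.

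Within oeSir3, starvation against midlog, RPO31 rose by 1.87 ± 0.49 and RET1 by 1.12 ± 0.41 on the centred scale. That is 2 of 9 beside 35.7%, and so under the share of all genes. RPC17 (-2.05 ± 0.75), RPC11 (-1.62 ± 0.66) and RPC82 (-1.30 ± 0.43) fell, 3 of 9 beside 20.8%. On the spike-in scale RPO31 and RET1 fell by 2.68 and 3.42 instead. With 1 oeSir3 library a time, whose spread is taken from the other groups, the RPO31 call was lost without replicate 2 (1.73, adjusted p 0.051), RET1 without either replicate (1.30 and 0.95), RPC17 without replicate 2 (-1.26), and RPC82 and RPC11 without replicate 1 (-1.05 and -1.43). With the length trend subtracted RPO31 was higher by 1.02 ± 0.35 and RET1 by 0.42 ± 0.29. In limma's F test the course over all 7 times differed from the wild types for RPO31 (F 6.41, adjusted p 0.00019) and RET1 (F 6.36, adjusted p 0.0002). It also differed for RPC53 (F 4.82, adjusted p 0.0019) and RPC37 (F 3.46, adjusted p 0.015). That is 4 of 9 beside 44.6% of all genes in that strain, and so about the share of all genes. The count was 2 without either oeSir3 replicate.

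At the other times RPC37, RPO31, RPC17 and RPC11 were called in oeSir3. RPC37 was lower at midlog (-1.11 ± 0.28, beside 5.59% of all genes) and at 1 doubling (-1.20 ± 0.28, beside 3.86%). RPC37 had centred values of 0.23 and 0.84 in midlog oeSir3, against 1.65, 1.44, 1.91 and 1.59 in the wild types. RPO31 was higher at 5 min (1.52 ± 0.43, beside 14.9%), a call lost without oeSir3 replicate 2 (adjusted p 0.10). RPC17 (-2.40 ± 0.65) and RPC11 (-1.78 ± 0.57) were lower at 90 min, beside 8.33%. For RPC17 the oeSir3 values at 90 min were -1.19 and 2.42, against 1.48, 3.19, 3.54 and 3.86 in the wild types, so 1 of the oeSir3 libraries lies among them. Across all genes the centred value changed by -0.22 and -0.52 per doubling of coding length in oeSir3 replicates 1 and 2 at 90 min. In the wild types it changed by -1.14 to -0.53. The part of that trend in RPC17 (486 coding bases) and RPC11 (333) was not tested. Without oeSir3 replicate 1 the RPC17 difference was -0.60 (adjusted p 0.83) and that of RPC11 -0.40 (adjusted p 0.87). The RPC37 call at midlog was lost without oeSir3 replicate 1 (adjusted p 0.27) and that at 1 doubling without oeSir3 replicate 2 (adjusted p 0.088). On the spike-in scale none of the 7 calls of oeSir3 at single times passed, and with a pseudocount of 0.3 RPO31 at 5 min (0.63) and RPC37 at midlog (-0.87) did not pass either, beside both starvation calls above. At 30 min and 2 doublings none of 18 tests was called, with 8 at an unadjusted limma p under 0.05. Of 5567 genes 1272 had such a p at 30 min and 1458 at 2 doublings. Averaged over the course, no subunit was called in oeSir3, beside 8.39% of all genes. In that test 1724 of 5567 genes had an unadjusted limma p under 0.05. RPC11 (-1.13 ± 0.39, adjusted p 0.073) and RPC37 (-0.65 ± 0.22, adjusted p 0.067) were nearest, 4 of 9 had an unadjusted limma p under 0.05, and 2 of 9 were called without oeSir3 replicate 2.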

How the data were processed

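Yeast RNA was taken out with Trizol, mixed 10 to 1 by mass with S. pombe total RNA and made into stranded libraries after oligo(dT) selection with either of a pair of kits, per the labels' protocols. The deposited values are log2 of spike-in-scaled median coverage per gene, per the file headers. CASAVA 1.7.0 and, for S. pombe, ASM294v2 are named in the submitters' processing notes. Not given in the sources used here: aligner, yeast build, counter and use of strand. A gene and its antisense partner therefore cannot be told apart, and coordinates are those of RefSeq R64. Nothing in the labels says that replicates were separate cultures, so p-values cover only a spread that may be technical.

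Values were taken out of log2. The value that stands for coverage of 0, shared by 344 to 1173 genes of a library, was set to 0. All other values (100%, relative tolerance 1e-06) were whole or midway numbers of reads. limma 3.58.1 in R 4.3.3 was fitted to log2(value + 0.03) with a mean trend over all libraries (56 residual degrees of freedom, and 8 for series means), two-sided, on 5567 of 6319 genes above 0.15 in at least 4 libraries. The pseudocount understates changes of low genes. Libraries of a series were treated as independent, although the differences between replicates correlated over 0.1 in 153 of 168 pairs of times. The fit was tested on simulated data. Tables and plots used Python 3.11.15, numpy 2.4.6, pandas 2.3.3 and matplotlib 3.10.9. Precision is limited by depth, read from the coverage steps. Across genes, replicates had r of 0.808 to 0.990.

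Members and lists were chosen with earlier results of these data known. All members are named. From each list the text names called genes with the largest change, at most 3 a contrast, and the 5 genes most like the subunits. BCY1 and TRL1 were not analysed here. The values of 1 other list gene that this rule names are not reported here. Alternatives were another pseudocount, no filter, the zero value as deposited, only libraries with 10 reads or more at the median gene, no trend, other scalings, adjusted p alone, a replicate block, leaving out each series, and each set of series. A correction for coding length was added after the data had been seen.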

Additional observations from a re-analysis of the deposited data

Results flagged for a closer look

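Of 63 sets of 4 wild-type libraries (9 subunits at 7 times, centred log2 scale), 4 had 1 library far from the other 3, and chance alone flags about 1 in 20. RPO31 was -0.40 in wt1 replicate 1 at 1 doubling, with the others at 0.24, 0.33 and 0.36. RET1 was -1.50 in wt1 replicate 1 at starvation, with the others at -0.64, -0.63 and -0.48. RPC53 was 2.74 in wt1 replicate 2 at 30 min, with the others at 2.38, 2.43 and 2.43. RPC31 was 3.67 in wt2 replicate 1 at 2 doublings, with the others at 2.12, 2.13 and 2.21, in a library whose median gene had 9 reads.

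The course over the 7 times differed between oeSir3 and the wild types for 4 subunits by limma's F test of the interaction: RPO31 (F 6.41), RET1 (6.36), RPC53 (4.82) and RPC37 (3.46). Of all genes 44.6% differed in that test, which is about the share among the subunits. Sugar, strain background and SIR3 dose cannot be told apart there.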

How the results depend on the processing

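Counts of subunits called moved by over 1.5 times as follows, and the cause was not tested. Counts of all genes can move too. At 5 min on the spike-in scale in wild types, 46 of 5567 genes were called in series with separate zero values and 1458 in the others. In wild types on the spike-in scale, the 9 called in starvation against midlog were 5 once centred on the median gene, and the 2 at 5 min were 1 with a pseudocount of 0.3, 0 in series with separate values for coverage of 0 and 6 in those with a shared value. On the centred scale in wild types, the 5 in starvation were 8 by adjusted p alone and 9 on the spike-in scale, and the 3 at 5 min were 1 with a pseudocount of 0.3 and 5 by adjusted p alone. In the glucose strains the 3 at 5 min were 1 with that pseudocount, 7 by adjusted p alone, 7 on the spike-in scale and 5 in series with a shared value. For strains against wild types, the 0 of the series means were 1 with the zero value kept as deposited. The 7 at single times were 3 with a pseudocount of 0.3, 12 with the zero value kept, 13 by adjusted p alone, 4 on the spike-in scale and 13 in series with a shared value. The 4 on the spike-in scale were other calls, since none of the 7 passed there. The 4 in the time response were 2 with a pseudocount of 0.3, 1 on the spike-in scale and 7 in series with a shared value. Starvation calls within each strain, 34 in all, were 56 on the spike-in scale and 19 centred on the upper quartile, and in the 4 strains with a value in series with separate zero values 16 were 2. On the spike-in scale RPO31 and RET1 reversed in oeSir3 starvation against midlog, to -2.68 and -3.42, and 2 of the 5 genes most like the subunits stayed in the first 5.

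Leaving out 1 replicate gave 8 to 9, 0 to 2 and 8 to 9 calls in wild types on the spike-in scale for starvation, 5 min and 30 min, 5 to 6, 2 to 4 and 7 to 9 on the centred scale, and 3 to 4 in the glucose strains at 5 min. It gave 0 to 2 for series means, 5 to 13 at single times, 2 to 5 for the time response and 29 to 33 within strains.

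The difference between replicates 1 and 2 correlated across genes over 0.1 in 153 of 168 pairs of times of a strain. It did so in 125 of 196 pairs of strains at a time, with r from -0.43 to 0.74 over the 196. Libraries with the same replicate number thus often shared part of their differences, which the main fits, treating them as independent, leave out. The 6 series with separate zero values are all replicate 1, so in their strains replicate number and that set cannot be told apart. No label names a shared culture or batch, and a replicate block was fitted as an alternative. With a replicate block the calls were 5 for 5 min on the spike-in scale, 1 for series means and 7 for the time response, and otherwise within 1.5 times. Counts held within 1.5 times in 260 of the alternatives other than the length correction and moved further in 34. Counts of 0 in both fits are among the 260. Where a series of a mutant strain was left out, only that strain's calls were counted anew. Results of single genes stayed the same in 1906, which includes genes called in neither fit. A call was lost in 162 and gained in 49, and the sign reversed in 2. Depth limits the 6 libraries under 10 reads at the median gene.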
